A study of Brassica oleracea var. italica with 2 samples.

Results

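The records described here are the copper-responsive miRNAs miR397, miR398, miR408 and miR857 of broccoli (Brassica oleracea var. italica). They were taken by name, as every record of the known-miRNA table whose name places it in 1 of these 4 families. The rule found 39 of 1400 records, of which 8 carry read counts, among 169 records of the whole table with counts. By family, miR397 has 11 records and 1 with a count, miR398 has 13 and 4, miR408 has 13 and 3, and miR857 has 2 and none. Names follow the miRBase plant entry that each broccoli read was matched to, so the species prefix (bna, osa, aly, mtr, smo, bol, ath) names the entry and not the plant sampled.

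Small RNAs were sequenced from the shoot apex of a pair of inbred broccoli lines that form heads differently in heat. HT is the heat-tolerant line B295 and HS is the heat-sensitive line BR1 op, and the lines are nearly isogenic. Both were grown at 22 °C under 18 h of light and 6 h of dark. They were sampled at 54 days of age according to the labels, before heads formed in HT. In the paper HS formed no heads at 22 °C, and floral initiation of HT is placed near this age. Line and developmental stage of the apex therefore cannot be told apart. The paper treats 22 °C as heat stress for these plants, and there is no library from a cooler temperature. No heat treatment separates the libraries, so a difference between them is one between lines at the same temperature. Each line has 1 library, of 27069903 reads in HT and 26253036 reads in HS. The 169 counted records held 38431 reads in HT (0.142% of the library) and 28582 in HS (0.109%). These sums cover the counted records only, and may hold a read more than once where records share a sequence. The study counted many more known miRNA reads in each library. With 1 library per line, every test below compares the 2 libraries and not the genotypes, and has no replicate check. For the same reason the intervals cover counting error only. They may be too narrow even for that, since amplified reads with no molecular identifiers can repeat 1 molecule.

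In Arabidopsis these families are switched on together when copper is scarce. The transcription factor SPL7 binds GTAC motifs in the promoters of their genes, and the miRNAs then lower the mRNAs of copper proteins that a plant can spare. miR398 targets the copper/zinc superoxide dismutases CSD1 and CSD2 and their copper chaperone CCS, miR397 targets laccases that take part in lignin formation, miR408 targets plantacyanin and other laccases, and miR857 targets the laccase LAC7. The mature strand is the one loaded to guide silencing, and the miRNA* is its partner strand from the same stem-loop, which is usually less abundant. Copper was not among the measurements used here.

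The mature sequences are shown because they tell the families apart, with bases 2 to 8 from the 5′ end, the seed, in capitals and T written for U. All lie on the Brassica rapa reference (sequence version 1.1) that the deposited positions use. That reference is of another species than the broccoli sampled, so loci and their number in broccoli were not observed.
bna-miR397a: tCATTGAGtgcagcgttgatgt
osa-miR398b: tGTGTTCTcaggtcacccctg
smo-miR408: tGCACTGCctcttccctggctc
ath-miR857: tTTTGTATgttgaaggtgtat

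No seed is shared between these families. The miR397 record is at chr A10:10579037-10579058 on the plus strand, the miR398 record at A03:2736216-2736236 on the plus strand, the miR408 record at A05:364810-364831 on the minus strand and the miR857 record, which has no count, at A10:10579836-10579856 on the plus strand. The miR397a and miR408 records are 22 nt long and the others 21 nt, and each of these mature sequences begins with T (U in RNA). Gene annotation of these positions was not used here.

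The miRNA* sequences with counts are shown because the results turn on them, with the same bases in capitals.
aly-miR398b*: gGGTCGATatgagaacacatg
aly-miR398c*: gGGTCGACatgagaacacatg
bol-miR398a*: gGAGTGTCatgagaacacggaa
mtr-miR408*: aCAGGGAAcaagcagagcatg
aly-miR408*: cAGGGAACaagcagagcatgg

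The miR398b* record (A10:13711107-13711127, minus strand) and the miR398c* record (A03:2736141-2736161, plus strand) differ by T8C, counted from the 5′ end of miR398b*, so a single base tells apart the reads of these stem-loops. The miR408* records (A05:364881-364901 and A05:364880-364900, minus strand) are the same strand read 1 nt apart and share 20 bases. On the Brassica rapa reference they are overlapping forms of 1 locus and not separate genes. bol-miR398a* (A02:20163153-20163173, minus strand) is deposited with 22 bases for 21 positions.

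Positions on that reference pair most of these records into stem-loops. On A03, miR398c* and miR398b lie 54 bases apart, and on A05, mtr-miR408* and smo-miR408 lie 49 bases apart. On A10, miR398b* lies 53 bases from ath-miR398b, a record that carries the same mature sequence as osa-miR398b but has no count of its own. On A02, miR398a* lies 42 bases from ath-miR398a, which has no count and differs from osa-miR398b by G21T. In all 4 stem-loops the miRNA* is on the 5′ side and the mature strand on the 3′ side. miR397a and miR857 are neighbours on the plus strand of A10, with 777 bases between their mature records, and aly-miR857* lies 176 bases past miR397a.

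**Figure D1:**
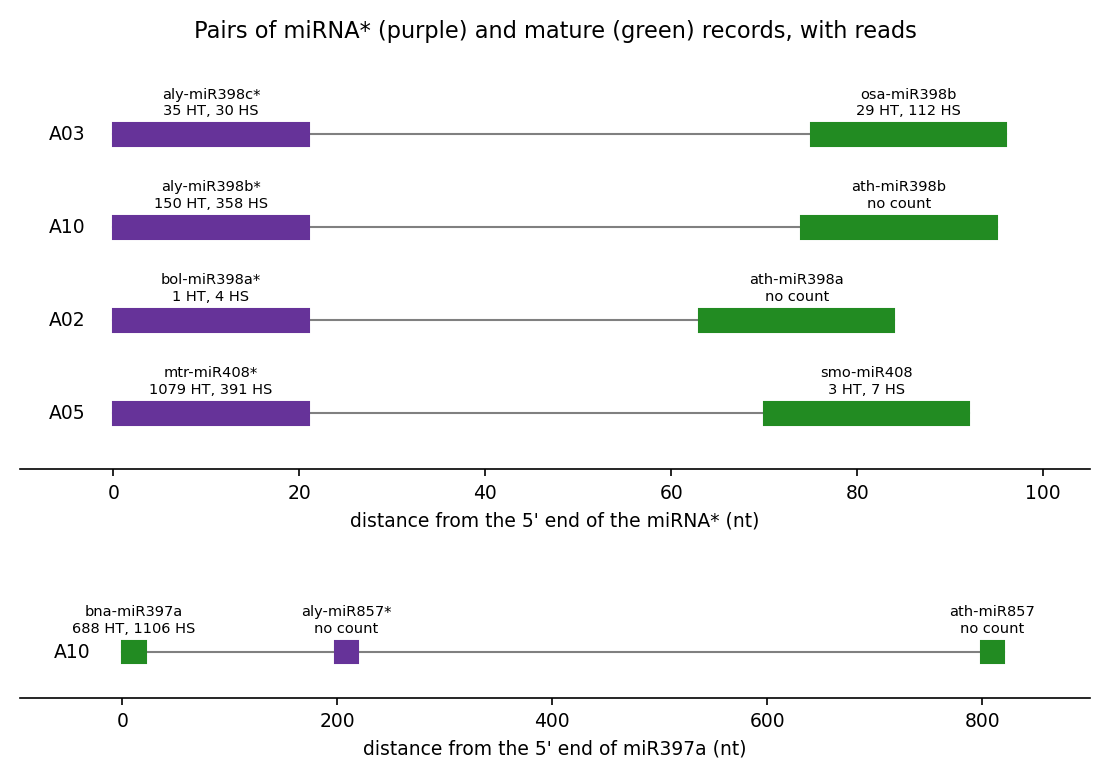
Positions of miRNA* (purple) and mature (green) records along 4 stem-loops and along the miR397a and miR857 stretch of A10, as distance in nt from the 5′ end of the first record, with reads in HT and HS above each. The counted mature miR398 sequence is placed on A03, and its copy on A10 has no count.

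The counted records did not move as 1 group. Mature miR397a and miR398b and the miRNA* of miR398b were lower in HT, while the miRNA* of miR408 was higher. Mature strands alone all had values below 1, with fold changes (HT/HS) of 0.603 for miR397, 0.251 for miR398 and 0.416 for miR408. The miR408 value rests on 3 and 7 reads, with an interval around 1. The contrast in direction thus rests on the miRNA* of miR408. Of the 8 counted records, 1 was called higher and 2 lower in HT, where a call needs an unadjusted p under 0.001 in Fisher's exact test (two-sided) and a fold change over 2. Over all 169 counted records 8.28% were called higher and 4.14% lower. By p alone, 1 of the 8 was higher and 3 were lower, against 13.6% and 6.51% of all counted records. With 8 records, these counts describe the records and test nothing about the families as a set.

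miR398 is the family that guards copper by lowering superoxide dismutase mRNAs. Its mature strand, osa-miR398b, had 29 reads or 1.07 TPM (reads scaled to library size, where 1 read is 0.0369 TPM in HT and 0.0381 TPM in HS; 95% exact interval 0.717 to 1.54) in HT, against 112 reads or 4.27 TPM (3.51 to 5.13) in HS. It was lower in HT, with a fold change (HT/HS) of 0.251 and an interval of 0.161 to 0.381. The difference passed the call (log2 -1.99, Fisher's exact test p = 2.63e-13, 2.22e-12 after Benjamini-Hochberg adjustment over all 169 records). By reads it ranked 65 of 169 in HT and 30 of 169 in HS. The apex holds many cell types, and fewer cells that make a miRNA cannot be told apart from less of it per cell.

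The miRNA* of miR398b was more abundant than its mature strand in both libraries. aly-miR398b* had 150 reads (5.54 TPM, interval 4.69 to 6.50) in HT, against 358 reads (13.6 TPM, 12.3 to 15.1) in HS. Its fold change of 0.406 (0.334 to 0.493) was in the same direction as that of the mature strand and passed the call (log2 -1.30, Fisher's exact test p = 3.45e-22, adjusted 4.49e-21). The fall of the mature strand was the larger, since the fold change of miR398b* was 1.62 times that of miR398b, though the interval of 1.02 to 2.64 comes close to 1.

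The miRNA* of the A03 stem-loop, which differs from miR398b* by 1 base, was not lower in HT. aly-miR398c* had 35 reads (1.29 TPM) in HT and 30 reads (1.14 TPM) in HS, a fold change of 1.13 (0.675 to 1.91; Fisher's exact test p = 0.710, adjusted 0.909). Its fold change was 2.78 times that of miR398b* (1.59 to 4.87), so the 2 miRNA* records differed in their change beyond counting error. Its direction turned to a fold change between 0.781 and 0.956 under the 4 other library scalings tried, none of which touches the ratio to miR398b*. The remaining record, bol-miR398a* of A02, had 1 read in HT and 4 in HS, a ratio of 0.242 with an interval of 0.00492 to 2.45, which is too few reads to give a direction.

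miR397a, the laccase-targeting miRNA, was the most abundant mature record of these families in both libraries. bna-miR397a had 688 reads (25.4 TPM, 23.6 to 27.4) in HT, against 1106 reads (42.1 TPM, 39.7 to 44.7) in HS. It was lower in HT with a fold change of 0.603 (0.548 to 0.664), a difference with p = 5.75e-26 by Fisher's exact test (adjusted 8.10e-25) that did not reach the 2-fold limit of a call (log2 -0.73). Under 3 of the other library scalings it did, at 0.463, 0.417 and 0.467. It ranked 18 of 169 in HT and 10 of 169 in HS. Of the 10 other miR397 records, 8 hold 1 sequence that lies wholly within the 22 nt of bna-miR397a. Whether reads of that sequence were counted under bna-miR397a is not given. Their missing counts therefore show neither presence nor absence of such reads.

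**Figure D2:**
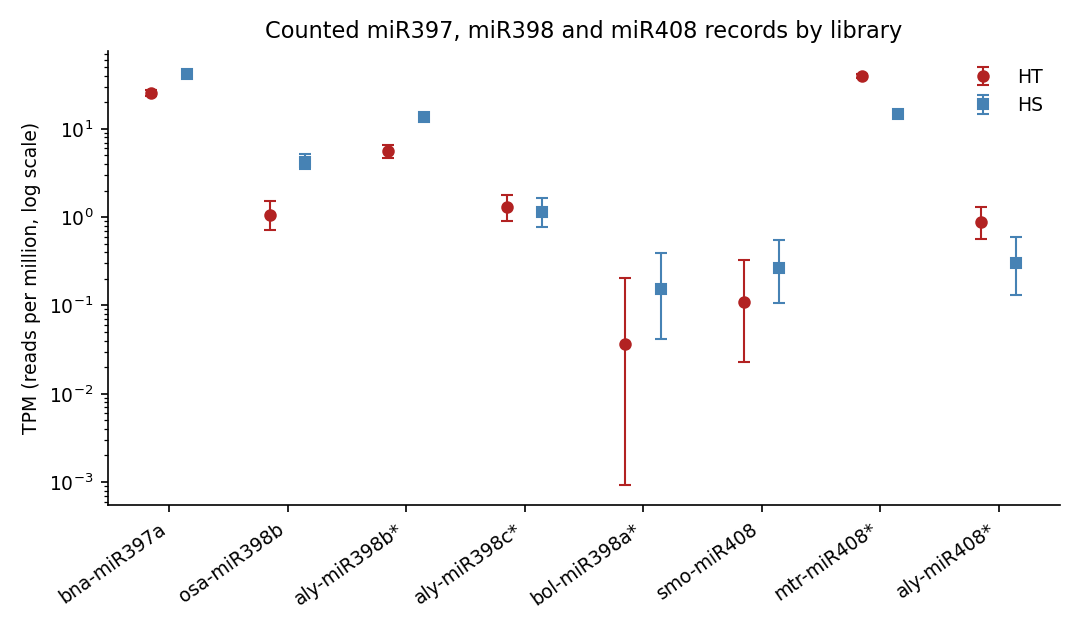
TPM on a log axis of the 8 counted records in HT (circles, left of each pair) and HS (squares, right), with 95% exact counting intervals of 1 library each. miR398b, miR398b* and miR397a are lower in HT and mtr-miR408* is higher, with intervals apart, and the intervals of the other 4 records overlap.

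In miR408, which targets plantacyanin and laccases, nearly all counted reads were of the miRNA*. mtr-miR408* had 1079 reads (39.9 TPM, 37.5 to 42.3) in HT, against 391 reads (14.9 TPM, 13.5 to 16.4) in HS. It was 2.68-fold higher in HT (2.38 to 3.01; log2 1.42, Fisher's exact test p = 3.15e-70, adjusted 8.88e-69), and was the record called higher. It ranked 11 of 169 in HT and 16 of 169 in HS, and in HT it had more reads than any other record of the families. When the library was scaled to the reads of counted records without miR165 and miR166, the fold change was 1.85, under the 2-fold limit.

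The form that starts 1 nt later had a similar ratio on fewer reads. aly-miR408* had 24 reads (0.887 TPM) in HT and 8 reads (0.305 TPM) in HS, a fold change of 2.91 (1.26 to 7.49; Fisher's exact test p = 0.00721, adjusted 0.0290), which is outside the call by its p. Its fold change over that of mtr-miR408* was 1.09 (0.468 to 2.82).

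The mature miR408 record had a value below 1 but rests on too few reads to give a direction. smo-miR408 had 3 reads (0.111 TPM, the floor of 3 reads) in HT and 7 reads (0.267 TPM) in HS, a ratio of 0.416 with an interval of 0.0694 to 1.82 (Fisher's exact test p = 0.220, adjusted 0.483). The fold change of mtr-miR408* was 6.43 times that of the mature record (1.46 to 38.7). The 2 strands thus differed in their change beyond counting error, which does not show that the mature strand was lower in HT. The counted form is 22 nt long and differs from its miRBase entry by G22C. The 21-nt entry ath-miR408 shares 20 bases with it and has no count, so these 3 and 7 reads may not be all the mature miR408 reads in the libraries.

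miR857, the LAC7-targeting family, gave no count in either library. Both of its records, ath-miR857 and aly-miR857*, are placed on A10 beside miR397a without a value, so no level and no limit can be given.

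**Figure D3:**
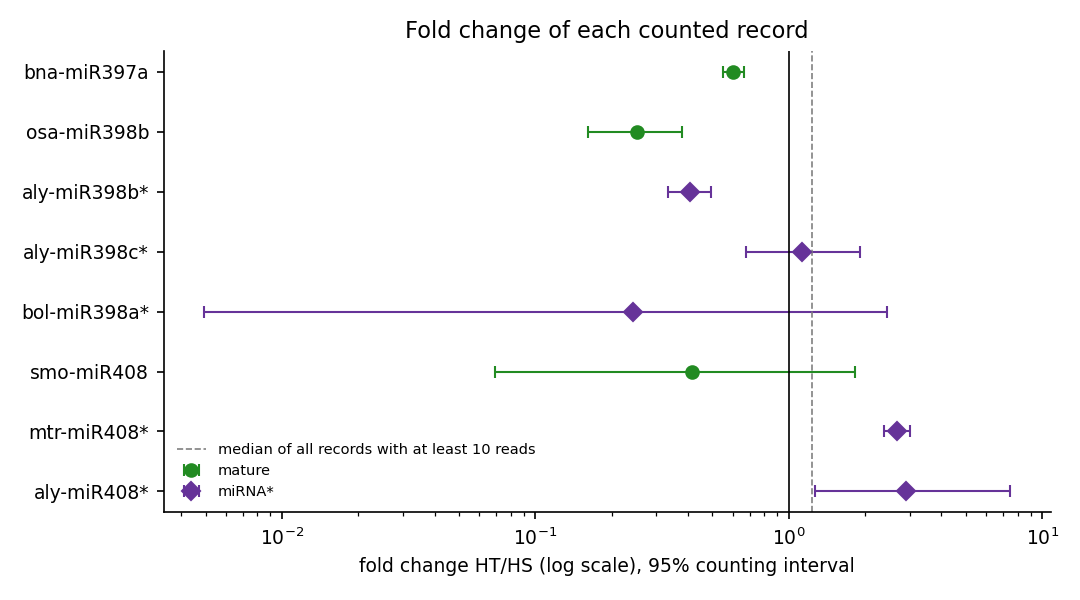
Fold change HT/HS of each counted record on a log axis, mature records as green circles and miRNA* records as purple diamonds, with 95% counting intervals. The solid line is no difference and the dashed line is the median of all 95 records with at least 10 reads (log2 0.30), and the records fall on both sides of each line.

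The order of levels changed between the libraries. In HT, mtr-miR408* (39.9 TPM) stood above miR397a (25.4 TPM) and miR398b* (5.54 TPM), with intervals that do not overlap. Below them in HT, miR398c*, miR398b and aly-miR408* lay at 1.29, 1.07 and 0.887 TPM with overlapping intervals. In HS, miR397a (42.1 TPM) came first, and mtr-miR408* (14.9 TPM) and miR398b* (13.6 TPM) followed with overlapping intervals. Mature miR398b (4.27 TPM) came next in HS. The part of length (21 or 22 nt) and of ligation or amplification in this order was not tested.

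Ratios of fold changes between records do not depend on the size given to either library. Of 21 pairs among the 7 records with at least 10 reads, 15 had intervals that leave out 1 and 6 did not. The pairs share records, and both miR408* forms of 1 locus enter them, so these are not separate differences. All 10 pairs among the 5 records with at least 50 reads left out 1, so the records that were lower in HT also differed among themselves in how much lower. mtr-miR408* had 10.6 times the fold change of miR398b (6.89 to 16.9), 6.58 times that of miR398b* (5.24 to 8.29) and 4.43 times that of miR397a (3.81 to 5.17). Among the records that were lower in HT, miR397a had 2.40 times the fold change of miR398b (1.56 to 3.79) and 1.48 times that of miR398b* (1.19 to 1.85). Each of the pairs with an interval around 1 holds smo-miR408 or aly-miR408*.

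Within stem-loops the balance of strands differed between the libraries. The A03 loop of miR398 gave 1.21 miRNA* reads per mature read in HT (0.717 to 2.05) and 0.268 in HS (0.173 to 0.404), a ratio of ratios of 4.47 (2.27 to 8.94). The mature reads cannot be assigned between A03 and A10, which hold the same sequence. With the miRNA* reads of both loops summed, there were 6.38 miRNA* reads per mature read in HT (4.30 to 9.79) and 3.46 in HS (2.80 to 4.31), a ratio of ratios of 1.84 (1.16 to 2.98). The excess of miRNA* over mature strand was thus seen in both libraries for miR398b and was larger in HT.

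The miR408 loop had 1103 miRNA* reads and 3 mature reads in HT, against 399 and 7 in HS. This is 368 miRNA* reads per mature read in HT (125 to 1786) and 57.0 in HS (27.4 to 143), a ratio of ratios of 6.44 (1.46 to 38.8). The size of both ratios depends on the few mature reads that carry a count.

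The strands of the A03, A10 and A05 loops were paired in silico. At 37 °C the minimum free energy was -25.8 kcal/mol for miR398b with miR398c* and -24.3 kcal/mol for miR398b with miR398b*, each with 17 base pairs. For miR408 with mtr-miR408* it was -21.2 kcal/mol with 14 base pairs. Strands of different families had weaker energies, at -16.2 kcal/mol for miR398b with mtr-miR408* and -7.8 kcal/mol for miR408 with miR398c*, although the first of these formed 15 base pairs. The second formed 9. These energies are computed from sequence and describe no measured amount.

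Summed by family and strand, mature reads were lower in HT in miR397 and miR398, mature miR408 gave too few reads to tell, and miRNA* reads were split. The miR398 miRNA* sum was 186 reads (6.87 TPM) in HT and 392 reads (14.9 TPM) in HS, a fold change of 0.460 (0.384 to 0.549). The miR408 miRNA* sum was 1103 reads (40.7 TPM) in HT and 399 reads (15.2 TPM) in HS, a fold change of 2.68 (2.39 to 3.01). Over the families, mature reads summed to 720 in HT and 1225 in HS, a fold change of 0.570 (0.519 to 0.625). Mature reads of all other counted records summed to 33330 in HT and 23598 in HS, a fold change of 1.37 (1.35 to 1.39). Some of those other records share a sequence in the paper, such as miR157a and miR157b. Their sum may therefore hold a read more than once, and its interval may be too narrow. The mature sum over the families is mostly miR397a, which has 688 of the 720 reads in HT and 1106 of the 1225 reads in HS.

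The families together kept nearly the same number of reads, with 2009 in HT (5.23% of the reads of the 169 counted records) and 2016 in HS (7.05%). The miRNA* made up 64.2% of them in HT (62.0 to 66.3) and 39.2% in HS (37.1 to 41.4), while over the 169 counted records it made up 11.4% in HT and 13.2% in HS. This difference rests on mtr-miR408*. Without it the miRNA* share was 22.6% in HT (19.9 to 25.4) and 24.6% in HS (22.5 to 26.8). All these shares cover counted records only. Mature entries such as ath-miR408 carry no count, so the shares over all reads of the families may differ.

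Among the 7 records with at least 10 reads, the median log2 fold change was -0.73, with 3 higher and 4 lower in HT. Over all 95 known records with at least 10 reads the median was 0.30 and 58.9% were higher. The 3 mature records all had lower values in HT, mature miR408 within counting error, where 25 of 68 mature records of the whole table were lower. Of the 4 miRNA* records, 3 were higher (miR398c* only with the library scaled to all reads) and 1 lower, with a median of 0.80 against -0.02 over the 27 miRNA* records of the table. The miR408* forms among them lie at 1 locus of the reference. At a minimum of 50 reads the median of the 3 miRNA* records left was 0.18, with 2 higher, against 0.0026 over all 14 miRNA* records.

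**Figure D4:**
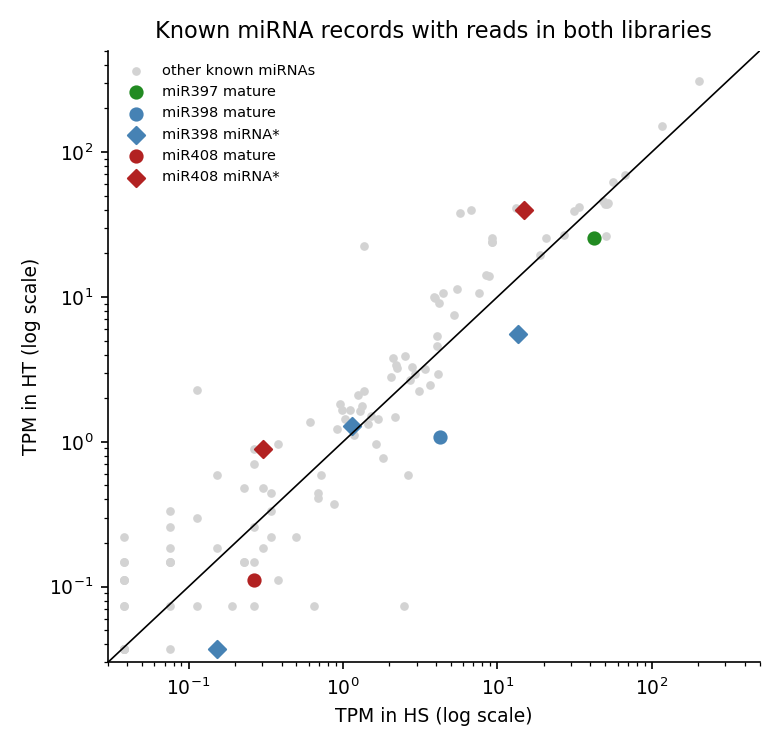
TPM in HT against TPM in HS on log axes for the 119 known miRNA records with reads in both libraries, other records in grey and the 8 counted records in colour. Points above the diagonal are higher in HT. miR398b, miR398b* and miR397a lie below it and both miR408* forms above it.

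Other nutrient-responsive families differed in their own ways. Mature miR395, which answers to sulfate, had 2160 reads in HT and 332 in HS summed over its records, a fold change of 6.31 (5.62 to 7.10). The paper gives miR395b and miR395c the same sequence. Some of these reads may therefore be counted more than once, and the interval may be too narrow. The miRNA* of miR827, a phosphate-responsive family, had 2 reads in HT and 65 in HS, a ratio of 0.0298 (0.00354 to 0.112). miR399, also responsive to phosphate, had at most 2 reads in any library and strand.

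The 31 records without a count limit what can be read from the 8. Of these, 14 overlap a counted record on the same strand, 4 have the sequence of osa-miR398b, 3 lie within 300 nt of a counted record on the same strand and 10 do none of these. Names and strands do not always match among them. zma-miR398a* carries the mature miR398b sequence although its name marks a miRNA*, and zma-miR408b* lies on the plus strand of A05, opposite mature miR408. None of the 39 records lies within 1000 nt of the 281 candidate stem-loops in the deposited candidate lists. The paper searched for candidates among reads left after known miRNAs were set aside, so this absence says little about these loci.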

How the data were processed

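The 2 libraries (1 HT, 1 HS) were made from gel-selected small RNA of 18 to 30 nt. The authors removed adaptors, low-quality reads and reads under 16 or over 31 nt, and discarded other non-coding RNA. They matched reads to plant miRBase by BLASTN with a stated limit of fewer than 2 mismatches. The counted record aly-miR398b* differs from its entry by T5C and G14A, which is past that limit. The miRBase release is given as 21, 19 or 18 in different sources. Where reads match several loci, how they were assigned is not given in the sources used here. The authors deposited raw read counts and TPM per record of known miRNAs, with positions on Brapa sequence version 1.1. Library totals were recovered from counts divided by TPM. The authors' fold change, p and q columns hold their own comparison and were not used. Candidate tables gave positions only.

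Each record's reads, set against all other reads of its library, were compared in Fisher's exact test (two-sided, scipy 1.17.1), with Benjamini-Hochberg adjustment over 169 records. Fold intervals are Clopper-Pearson and ratios of folds use conditional exact odds ratios, both at 95%. The floor is 3 reads, but ratios were computed from the counts as they stand, also where a library had fewer reads. ViennaRNA 2.7.2 gave duplex energies. The test was checked on simulated counts with counting error only, so that check does not cover variation between plants or libraries. All counted records of the families are named, and arms follow the asterisk in the name. Families, lists and tests were chosen with earlier results of these data known. Alternatives were 4 library scalings, other thresholds, read minimums, merged overlapping records and a pseudocount of 1 read. Python 3.11.15, numpy 2.4.6, pandas 2.3.3 and matplotlib 3.10.9 were used.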

Additional observations from a re-analysis of the deposited data

How the results depend on the processing

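Relative to scaling by all reads, log2 fold changes shifted by -0.38 with the sum of the deposited counts, by -0.53 with that sum without miR165 and miR166, by -0.24 with a trimmed mean and by -0.37 with the median of ratios. In that order, the fold change of miR397a was 0.463, 0.417, 0.510 and 0.467, that of summed miR408* was 2.06, 1.85, 2.26 and 2.07, and that of miR398c*, which turned below 1, was 0.868, 0.781, 0.956 and 0.875. Summed miR398* was at 0.353 with the sum, 0.318 without miR165 and miR166 and 0.356 with the median of ratios. With a 3-fold limit 1 record was called in place of 3, and the other settings gave counts within 1.5 times of 3. The records behind these counts changed, from 1 higher and 2 lower in the main setting. Scaling without miR165 and miR166 gave 0 higher and 3 lower, and a limit of adjusted p under 0.05 gave 2 higher and 2 lower. miRNA* per mature read over all miR398 records was 6.41 in HT and 3.50 in HS. The median log2 over all 8 records, with a pseudocount of 1 read, was -0.89. Leaving out mtr-miR408*, an alternative chosen after the data were seen, gave miRNA* shares of 22.6% in HT and 24.6% in HS. The pseudocount moved miR398a* most, to 0.388. Of 40 values for single records under the scalings and the pseudocount, 32 kept their direction and their side of the limits. No paired analysis was possible because each line has 1 library. Depth limits mature miR408 and miR398a*, at under 10 reads in each library.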
